A study of Saccharomyces cerevisiae with 21 samples.

Results

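The 81 genes described here encode the proteins of the large (60S) subunit of the cytosolic ribosome of budding yeast, Saccharomyces cerevisiae. They were taken by symbol, as every gene named RPL with a number and, where present, a copy letter A or B, together with RPP0, RPP1A, RPP1B, RPP2A and RPP2B of the stalk. They were 81 of the 5823 genes in the full-gene count table, and all 81 were among the 5618 genes with enough counts to be tested. They encode 46 proteins, 11 from a single gene and 35 from a pair of paralogs, whose A and B copies descend from duplicated genes.

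Total RNA, depleted of ribosomal RNA, was sequenced with a stranded kit from 7 strains, with 3 libraries for each, grown in rich medium at 30 °C and collected in logarithmic growth. WT was the reference. The spt6-R and spt6-KK strains carried the changes named R and KK in SPT6, whose product is a histone chaperone that accompanies elongating RNA polymerase II, and spt6-R,KK carried both. The rpb1-TPY and rpb1-FSP strains carried the changes named TPY and FSP in Rpb1, the largest subunit of RNA polymerase II, and rpb1-TPY,FSP carried both. The labels give each genotype 1 strain number shared by its 3 libraries and do not say that the libraries came from separate cultures. The p-values therefore measure the spread between libraries of 1 strain, which may be technical. What the letters stand for is not given, and a count of reads per gene cannot check them.

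Ribosomal protein genes are among the most heavily transcribed genes of a growing yeast cell. Many of their promoters are bound by Rap1, which recruits Fhl1 and Ifh1, and their output follows nutrient signals that act through TOR and protein kinase A. The subunit is built from all of these proteins together, and both copies of a paralog pair supply the same position in it.

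Library totals ran from 4860861 to 7803152 counts. Levels are given as CPM, counts scaled to a common library size after TMM normalization. They are therefore relative to the rest of the RNA in a library, and a change in total RNA per cell cannot be seen. Large-subunit genes took 9.60% ± 0.118 (SD, n = 3) of all counts in WT and 9.60% ± 0.642 in rpb1-TPY. The share was 7.68% ± 0.322 in spt6-R, 8.20% ± 0.543 in spt6-KK and 7.94% ± 0.266 in rpb1-FSP. It was 5.85% ± 0.304 in spt6-R,KK and 5.76% ± 0.502 in rpb1-TPY,FSP. The first library of rpb1-TPY,FSP stood apart from the other two of its strain, with a summed large-subunit level of 43008 CPM against 58462 and 57326 CPM, and the largest scaling factor of all libraries, 1.21. For some genes the result is given below both with and without it. Other values for rpb1-TPY,FSP include it unless stated.

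The genes lie on 14 chromosomes of the R64 genome; 53 have an intron and 28 do not. Coding sequences of the paralogs are 69.2% to 99.4% identical, with a median of 93.2%. The 250 bases before their start codons are 43.2% to 52.8% identical, with a median of 47.5%. Both were measured on global alignments. A pattern like the Rap1 site (CA, any base, CC, any 3 bases, CA), searched on both strands, occurred in the 600 bases before the start codon of 50 of the 81 genes (61.7%). It occurred in 34 of 56 small-subunit genes (60.7%) and in 966 of all 5491 genes searched (17.6%). The pattern and the 600-base window were chosen after the data were seen. The search first planned used a stricter pattern (CACCC, any 2 bases, ACA) from 250 bases before to 50 bases after the start. It matched only 5 of the 81 genes (6.2%) and 1.0% of all promoters searched. Matches to the looser pattern are descriptions of sequence that show no binding. The sites printed here, from RefSeq's R64 sequence and read 5′ to 3′ on the gene's own strand, are those of 3 pairs, RPL36, RPL26 and RPL27, whose copies changed unequally in the double mutants and each hold a match. Those of RPL42A, among the genes that fell most, and RPP0, among those that changed least, follow them. Capitals mark the match.
RPL36A, chrXIII:650972-651001, plus strand, 163 bases before the start codon: gactgttttaCACCCGTACAtttcacagtt
RPL36B, chrXVI:76535-76564, minus strand, 315 bases before the start codon: actgtattttCACCCGTACAtccacggatg
RPL26A, chrXII:818990-819019, plus strand, 312 bases before the start codon: acctttccaaCATCCGTACAtattgattat
RPL26B, chrVII:555501-555530, plus strand, 301 bases before the start codon: atcccttttaCACCCGTGCAttaaaggtgt
RPL27A, chrVIII:126093-126122, plus strand, 418 bases before the start codon: gacgttaatgCATCCGTACAcctacatctt
RPL27B, chrIV:1401424-1401453, plus strand, 336 bases before the start codon: aatcattttcCACCCACACAtatattaccc
RPL42A, chrXIV:330941-330970, plus strand, 371 bases before the start codon: agagatcttaCATCCTTACAtctaaagtaa
RPP0, chrXII:805614-805643, plus strand, 263 bases before the start codon: gcctgcttaaCATCCGAACAtttcacattt
The 2 RPL36 sites hold the same 10 letters, while their flanks and their distances to the start codon differ. No match was found in those windows for RPL15A, RPL15B, RPL4A, RPL4B, RPL18B, RPL37B or RPL10.

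In both double mutants nearly every large-subunit gene was lower than in WT. In spt6-R,KK 78 of 81 genes fell and none rose (edgeR, false discovery rate under 0.05), where 17.5% of all tested genes were called lower. The median log2 fold change was -1.04, a ratio of 0.486, against a median of 0.02 over all genes. In rpb1-TPY,FSP 78 fell and none rose, where 16.4% of all genes were called lower. The median was -1.09, a ratio of 0.469, against 0.06 over all genes. Of the 81 genes, 42 had a log2 fold change of -1 or below in spt6-R,KK and 52 in rpb1-TPY,FSP. The 56 small-subunit genes all fell in both, with medians of -1.03 and -1.08. The 2 double mutants share their WT libraries, so their values against WT are given side by side and not as separate evidence.

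**Figure D1:**
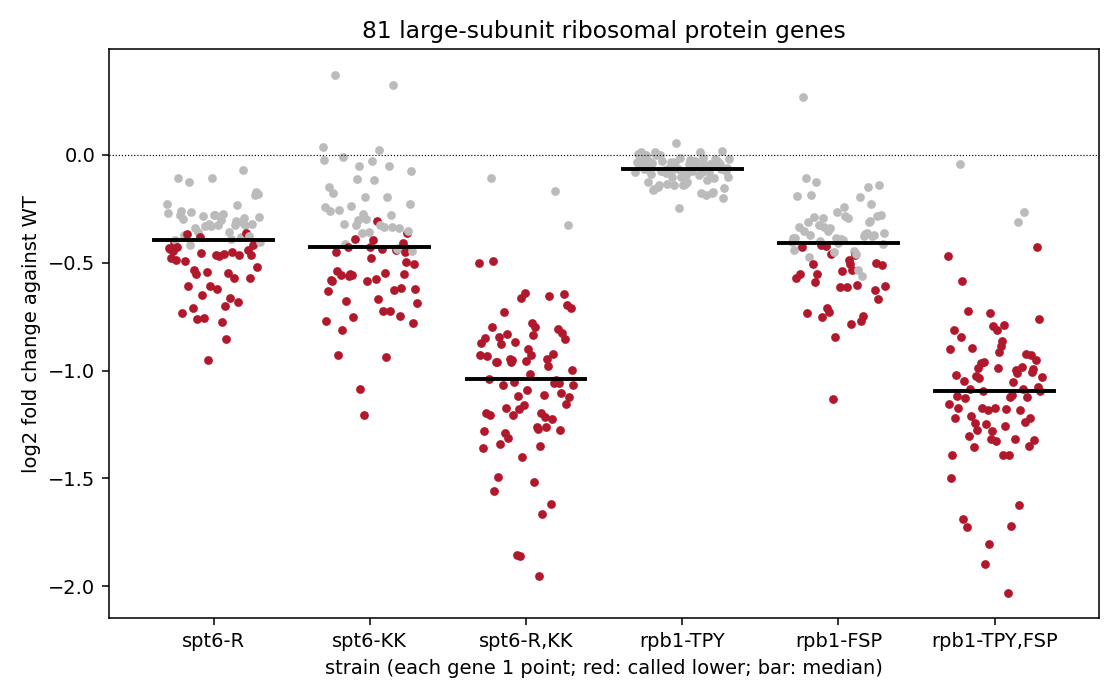
Log2 fold change against WT (edgeR) of each of the 81 large-subunit genes in the 6 mutants; each point is a gene, red points were called lower, grey points were not called, and bars are medians. In the 2 double mutants 78 genes each are red and medians lie at -1.04 and -1.09, while the rpb1-TPY points lie around -0.07.

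The gene lowest against WT in both double mutants was RPL36A, YMR194W, on chromosome XIII at 651145 to 651910 of R64, plus strand. Its level was 275, 287 and 260.1 CPM in the WT libraries, 67.026, 81.8 and 63.8 CPM in spt6-R,KK and 64.4, 77.4 and 59.8 CPM in rpb1-TPY,FSP. Neither double mutant overlapped WT, and the groups of the double mutants overlapped each other. The log2 fold changes were -1.95 ± 0.14 (SE; edgeR adjusted p = 5.63e-09) and -2.03 ± 0.14 (adjusted p = 3.53e-09). In the single mutants its level lay between, at 152, 153 and 149.9 CPM in spt6-R, 183, 156 and 159 CPM in spt6-KK and 176, 176 and 125 CPM in rpb1-FSP. In rpb1-TPY it was 237, 302 and 266 CPM, which overlapped WT.

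RPL27B (YDR471W, chromosome IV, 1401770 to 1402564, plus strand) and RPL26A (YLR344W, chromosome XII, 819312 to 820142, plus strand) followed. RPL26A encodes a protein at the rim of the exit tunnel, the channel by which the growing chain leaves the ribosome. RPL27B stood at 788, 828 and 792 CPM in WT, 210.4, 250.4 and 204 CPM in spt6-R,KK and 207, 254 and 228 CPM in rpb1-TPY,FSP. RPL26A stood at 812, 853 and 805 CPM in WT, 231, 249.8 and 202 CPM in spt6-R,KK and 189.6, 251 and 223 CPM in rpb1-TPY,FSP. For both genes every library of either double mutant lay below every WT library. RPL27B had log2 fold changes of -1.86 ± 0.12 and -1.80 ± 0.12, and RPL26A of -1.86 ± 0.15 and -1.90 ± 0.15. RPL42A, whose protein lies near the site where spent tRNA leaves, went from 599.6, 599 and 601 CPM in WT to 205, 188 and 192 CPM in spt6-R,KK and 169.9, 204 and 211 CPM in rpb1-TPY,FSP. RPL37B went from 815, 794 and 798 CPM to 269, 260.2 and 229 CPM and 242, 256 and 233 CPM in the same strains. RPL18B went from 325, 384 and 375 CPM to 163, 122 and 101 CPM and 115, 110.1 and 103 CPM. None of these groups overlapped WT, and the log2 fold changes of the 3 genes lay between -1.49 (RPL18B in spt6-R,KK) and -1.72 (RPL18B in rpb1-TPY,FSP).

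**Figure D2:**
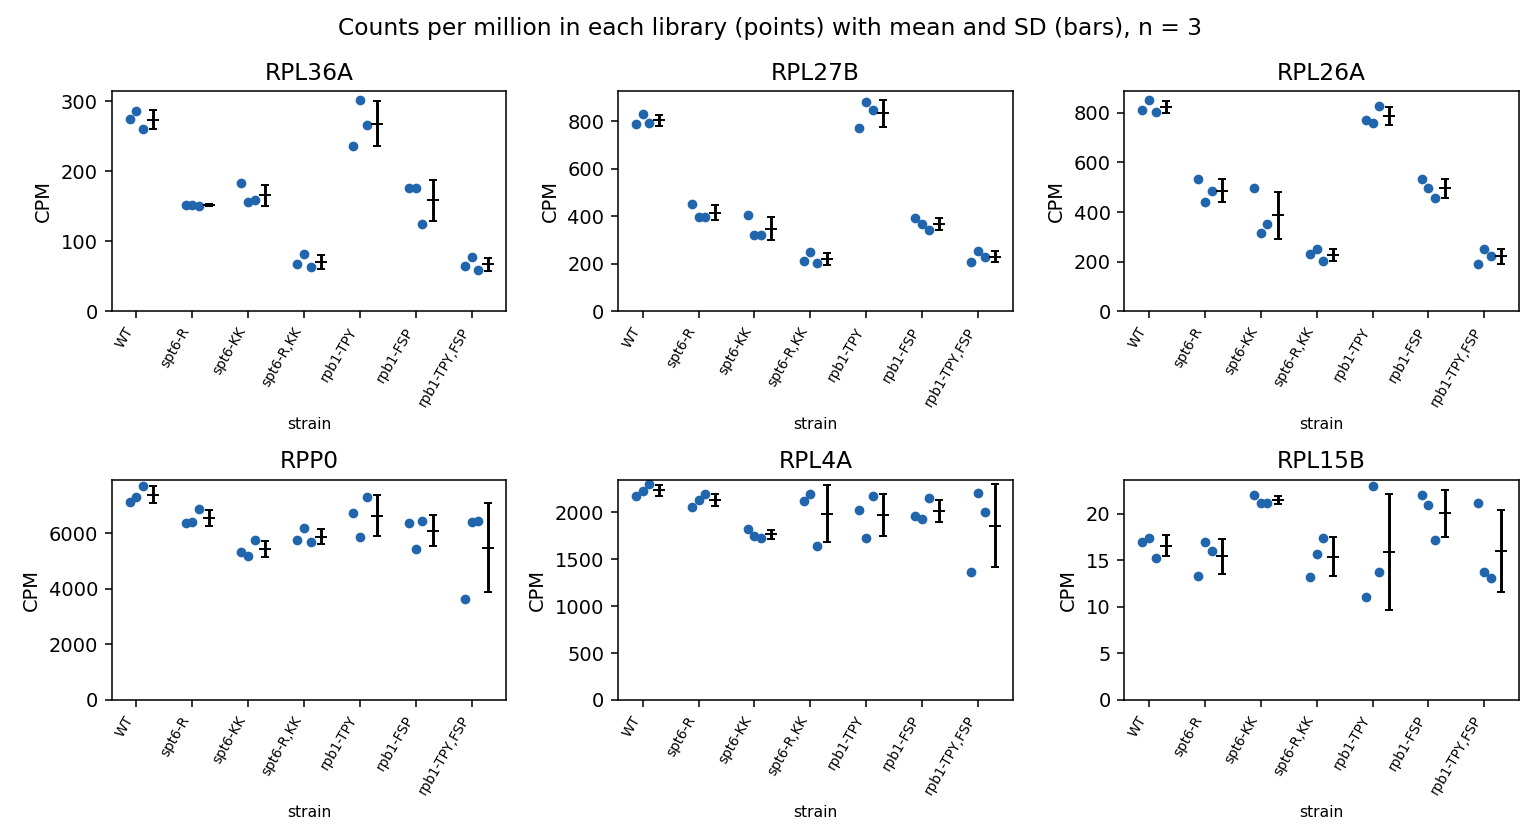
CPM in each library (points, 3 per strain) with mean and SD (bars) for 6 genes; each vertical axis starts at 0. RPL36A, RPL27B and RPL26A are lowest in the 2 double mutants, and the first rpb1-TPY,FSP library is the lowest of all for RPP0 (3629 CPM) and RPL4A (1366 CPM), whose other double mutant libraries lie closer to WT.

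At the other end, few genes stayed near their WT level, and they had unlike abundances. RPP0 (YLR340W, chromosome XII, 805887 to 806825, plus strand) encodes the scaffold of the stalk, which carries the acidic P1 and P2 proteins and helps recruit translation factors. It stood at 7109.9, 7295 and 7703 CPM in WT and 5766, 6178 and 5678 CPM in spt6-R,KK, groups that did not overlap, yet the fold change of -0.33 ± 0.16 was not called (edgeR adjusted p = 0.111). In rpb1-TPY,FSP it stood at 3629, 6382 and 6422 CPM, and the fold change of -0.43 ± 0.16 was called (adjusted p = 0.0402). That call rested on the first rpb1-TPY,FSP library: without it the log2 fold change was -0.20 (adjusted p = 0.184). The call was also lost without any 1 WT library, without spt6-KK library 2 or 3 or without spt6-R,KK library 2, with log2 fold changes from -0.45 to -0.40 and adjusted p from 0.0506 to 0.107. It was lost too with mid-gene counts (-0.43, adjusted p = 0.0539) and when only the strains compared were fitted (-0.43, adjusted p = 0.172). In spt6-R,KK, RPP0 was called lower when the first rpb1-TPY,FSP library was left out (log2 fold change -0.32, adjusted p = 0.0148).

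RPL4A encodes a protein of the exit tunnel wall. It was 2171, 2229 and 2297 CPM in WT, 2123, 2194 and 1640.2 CPM in spt6-R,KK and 1366, 2208 and 1999 CPM in rpb1-TPY,FSP. Its groups overlapped, 1 library of each double mutant was low, and its log2 fold changes of -0.17 ± 0.14 and -0.27 ± 0.14 were not called. Without rpb1-TPY,FSP library 2 the second was called lower (log2 fold change -0.43, adjusted p = 0.0470), and without library 1 it was -0.08. RPL4A and RPL4B are 98.9% identical in coding sequence and share most of their 50-base windows, so how reads were divided between them is uncertain.

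RPL15B is the lowest of the genes per kilobase of coding sequence, at 26.9 CPM per kilobase in WT against a median of 2355 and a maximum of 10322 for RPL41A, which encodes the ribosome's smallest protein. It stood at 16.995, 17.4 and 15.3 CPM in WT, 13.1, 15.7 and 17.4 CPM in spt6-R,KK and 21.1, 13.8 and 13.1 CPM in rpb1-TPY,FSP. The groups overlapped, and the log2 fold changes were -0.11 ± 0.22 and -0.042 ± 0.22. RPL41B, the minor copy of that smallest protein's pair, stood at 185, 157 and 161 CPM in WT and fell to 98.5, 97.6 and 123 CPM in spt6-R,KK (log2 fold change -0.66 ± 0.19). In rpb1-TPY,FSP it stood at 84.9, 158 and 164 CPM, where library 1 was below all WT libraries and the other 2 were within their range, and it was not called (-0.31 ± 0.19). Without library 1 that value was -0.054 (edgeR adjusted p = 0.807). RPL41A and RPL41B share most of their short coding sequence, so their division is also uncertain.

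RPL10 and RPL16B fell less than most. RPL10 encodes a late-joining protein next to the peptidyl-tRNA site. RPL10 was 2528, 2494 and 2665 CPM in WT, 1712, 1717 and 2007 CPM in spt6-R,KK and 1378, 1932 and 2246 CPM in rpb1-TPY,FSP, with log2 fold changes of -0.50 ± 0.14 and -0.47 ± 0.14. RPL16B was 3186, 3214 and 3251 CPM, 2324, 2596 and 1948 CPM and 1820.4, 2417 and 2188 CPM in the same strains, with -0.49 ± 0.12 and -0.59 ± 0.12. Neither gene's double mutant libraries overlapped WT. Without the first rpb1-TPY,FSP library RPL10 was no longer called in that strain (log2 fold change -0.29, adjusted p = 0.0638), nor was it when only the strains compared were fitted (-0.47, adjusted p = 0.0798).

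Most genes of every role fell in the double mutants. In the stalk, 4 of 5 genes fell in spt6-R,KK (median log2 fold change -0.9995) and 5 of 5 in rpb1-TPY,FSP (-1.03), RPP0 being the exception in the first. Its other members encode the P1 and P2 acidic proteins. RPP1A stood at 1251, 1224 and 1273 CPM in WT, 609, 629.9 and 484 CPM in spt6-R,KK and 468, 693 and 617 CPM in rpb1-TPY,FSP. RPP1B stood at 1274, 1312 and 1248 CPM, 862, 819.9 and 658 CPM and 533, 876 and 854 CPM. The 3 groups of each gene put both double mutants below WT without overlap, by -1.12 and -1.08 for RPP1A and -0.71 and -0.76 for RPP1B on the log2 scale. RPP2A stood at 1377, 1429 and 1311 CPM in WT, 721, 765 and 573 CPM in spt6-R,KK and 464, 767 and 699 CPM in rpb1-TPY,FSP. RPP2B stood at 1596, 1562 and 1637 CPM, 893, 729 and 665 CPM and 628, 865 and 859 CPM. These groups too lay below WT without overlap, with log2 fold changes of -0.9995 and -1.09 for RPP2A and -1.07 and -1.03 for RPP2B. The first rpb1-TPY,FSP library had the lowest level of its group for each of the 5 stalk genes. Without that library RPP0 was not called in rpb1-TPY,FSP. The log2 fold changes there were then -0.93 for RPP1A, -0.56 for RPP1B, -0.90 for RPP2A and -0.88 for RPP2B, all still called.

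The 3 genes of the proteins that bind 5S ribosomal RNA before joining the subunit all fell in both double mutants. RPL5 was 5048, 5152 and 5200.3 CPM in WT, 2934, 3016 and 2839 CPM in spt6-R,KK and 2155, 2892 and 3069 CPM in rpb1-TPY,FSP (log2 fold changes -0.81 ± 0.12 and -0.92 ± 0.12). RPL11A was 664, 652 and 691 CPM, 308, 366 and 381 CPM and 249.7, 318 and 333 CPM (-0.93 ± 0.13 and -1.16 ± 0.13). RPL11B was 454, 490.2 and 488 CPM, 213, 279 and 289 CPM and 232, 263 and 272 CPM (-0.87 ± 0.12 and -0.90 ± 0.12). All 3 had every double mutant library below every WT library. Without the first rpb1-TPY,FSP library the values in that strain were -0.78 for RPL5, -1.03 for RPL11A and -0.83 for RPL11B, all still called.

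Of 16 genes for proteins at the exit tunnel, 15 fell in each double mutant, with medians of -1.08 and -1.12, RPL4A being the one that was not called. The 4 genes near the peptidyl transferase centre (RPL2A, RPL2B, RPL3 and RPL10) all fell, with medians of -0.80 and -0.98. Among them RPL3, whose protein reaches into that centre, was 4643, 4726 and 5037 CPM in WT, 2986, 2241 and 2202 CPM in spt6-R,KK and 1897, 2228 and 2268 CPM in rpb1-TPY,FSP. Of 10 genes for proteins that form bridges to the small subunit or join late, 10 and 9 fell, with medians of -1.13 in both, and RPL41B was the one not called. RPL19A and RPL19B stand in both the tunnel and the bridge list. Of the 11 single-copy genes, 10 fell in spt6-R,KK and 11 in rpb1-TPY,FSP, with medians of -0.93 and -0.96. Beside those above they were RPL25, where the signal recognition particle docks (-0.87 and -0.96), RPL28, the site of classical cycloheximide resistance (-0.66 and -0.73), and RPL29 (-1.40 and -1.32). RPL30, whose protein represses splicing of its own transcript, had -1.09 and -1.33, and the tunnel gene RPL39 had -1.21 and -1.05. RPL32 had -0.93 and -0.91, and RPL38 -1.11 and -1.12.

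Among the single mutants, 3 had lower large-subunit genes and rpb1-TPY had none. In spt6-R 41 of 81 genes fell and none rose, where 4.47% of all genes were called lower, with a median log2 fold change of -0.40 against -0.02 over all genes. In spt6-KK 43 fell and none rose, where 6.94% of all genes were called lower, with a median of -0.43 against 0.05. In rpb1-FSP 31 fell and none rose, where 1.46% of all genes were called lower, with a median of -0.41 against -0.0033. Of the small-subunit genes 29, 30 and 15 of 56 fell in these 3 strains, with medians of -0.42, -0.39 and -0.42. In rpb1-TPY no large-subunit gene was called either way by edgeR or DESeq2 and none had an unadjusted p under 0.05. Over all genes 0% were called lower and 0.0534% higher in that strain, and the members' median was -0.07.

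Near the threshold these counts moved with single libraries. The spt6-R count was 17 without WT library 2, 24 without WT library 3, 17 without spt6-R library 2 and 19 without spt6-R library 3. The spt6-KK count was 23 without spt6-KK library 2 and 28 without library 3. The rpb1-FSP count was 19, 11 and 17 without WT libraries 1, 2 and 3, and 20, 16 and 10 without rpb1-FSP libraries 1, 2 and 3. Without the first rpb1-TPY,FSP library the counts rose to 56 in spt6-R, 56 in spt6-KK and 45 in rpb1-FSP. Fits with only WT and the mutant called 73 genes lower in spt6-R and 68 in rpb1-FSP. The median log2 fold change in those fits was -0.38 in spt6-R and -0.40 in rpb1-FSP. The shares over all genes above belong to the fit of all 21 libraries, and none is given for these other fits. Whether calls moved alike over all genes is therefore not shown.

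RPL27B was the lowest gene in each of the 3 affected single mutants. It stood at 450.5, 399 and 398 CPM in spt6-R, 404, 320.5 and 320.3 CPM in spt6-KK and 391, 369 and 341 CPM in rpb1-FSP, against 769, 881 and 847 CPM in rpb1-TPY and the WT levels above. All 9 libraries of the first 3 strains lay below all WT libraries, and rpb1-TPY overlapped WT. The log2 fold changes were -0.95 ± 0.12, -1.20 ± 0.12, -1.13 ± 0.12 and 0.053 ± 0.11, with edgeR adjusted p of 3.82e-05, 1.64e-06 and 5.90e-06 for the first 3. In spt6-R, RPL36A (-0.85 ± 0.14) and RPL34A (-0.78 ± 0.11) followed. RPL34A was 626, 650.5 and 636 CPM in WT and 377, 382 and 359 CPM in spt6-R, with no overlap.

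In spt6-KK the next lowest were RPL26A (-1.08 ± 0.14) and RPL37B (-0.94 ± 0.12). RPL26A was 495, 316 and 353 CPM and RPL37B 518, 346 and 395 CPM in spt6-KK, and in both the first library was the highest. Stalk genes fell in 4 of 5 cases in spt6-KK, with a median of -0.62, and in 1 of 5 in spt6-R, with a median of -0.29. Whether the strains differ in stalk genes was not tested. By gene the stalk's log2 fold changes in spt6-KK ran from -0.78 (RPP1A) to -0.45 (RPP0, not called). The RPP1B call (-0.51) was lost without any 1 WT library or spt6-KK library 2 or 3 (log2 fold changes -0.52 to -0.44, adjusted p 0.0682 to 0.164), and the RPP2A call without spt6-KK library 2 (-0.58, adjusted p = 0.0590). In spt6-R the 1 stalk call, RPP1A (-0.52 ± 0.13), was lost without WT library 2 or 3 or any 1 spt6-R library (-0.55 to -0.48, adjusted p 0.0520 to 0.0679). Of the 5S RNA partners, RPL5 fell in spt6-KK (-0.62 ± 0.12) and RPL11B in spt6-R (-0.43 ± 0.12). The latter was lost without WT, spt6-R or spt6-KK library 2 or 3 or rpb1-TPY,FSP library 2 (-0.42 to -0.41, adjusted p 0.0509 to 0.136), and with mid-gene counts (-0.40, adjusted p = 0.0557). RPL10 (0.035 ± 0.14), RPL41B (0.33 ± 0.19) and RPL15B (0.37 ± 0.22) had the highest values and were not called. RPL10 was 2748, 2479 and 2646 CPM in spt6-KK and overlapped WT. RPL15B was 21.958, 21.2 and 21.2 CPM and RPL41B 199.8, 215 and 215 CPM in spt6-KK, all 6 values above the WT libraries of the same gene.

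In rpb1-FSP, RPL29 and RPL36A followed RPL27B. RPL29 stood at 441, 429 and 409 CPM in WT and 284, 232 and 196 CPM in rpb1-FSP (-0.85 ± 0.14), without overlap. RPL29 was also the lowest of the members in rpb1-TPY, at 338, 353 and 386 CPM, but its log2 fold change of -0.25 ± 0.14 there was not called. RPL9B, at 327, 330.3 and 316 CPM in WT and 268, 289 and 290.1 CPM in rpb1-TPY, followed (-0.20 ± 0.13), then RPL41B, at 126, 163 and 153 CPM (-0.19 ± 0.19), and neither was called. The highest there were RPL27B, RPL9A (0.019 ± 0.12) and RPL38 (0.014 ± 0.14), all of which overlapped WT, at 941, 1205 and 1190.2 CPM for RPL9A and 819, 1071 and 934 CPM for RPL38. At the high end in rpb1-FSP were RPL15B (0.27 ± 0.22), RPL16B (-0.11 ± 0.12) and RPL20A (-0.13 ± 0.12), none called. In rpb1-FSP the 2 stalk calls were RPP1A (-0.51) and RPP2B (-0.61). RPP2B was lost without WT or rpb1-FSP library 2 or 3 (-0.63 to -0.55, adjusted p 0.0648 to 0.110). RPP1A was lost without any 1 WT or rpb1-FSP library, spt6-R or spt6-KK library 2 or 3, spt6-R,KK library 2 or rpb1-TPY,FSP library 3 (-0.56 to -0.47, adjusted p 0.0501 to 0.154). It was lost too with DESeq2's size factors (-0.51, adjusted p = 0.0534), with no filter on low counts (-0.50, adjusted p = 0.0533) and with mid-gene counts (-0.50, adjusted p = 0.0585). RPL15B was 21.99, 20.9 and 17.1 CPM in rpb1-FSP and overlapped WT. RPL16B was 3008, 2830.3 and 3121 CPM and RPL20A 1377, 1403 and 1449.6 CPM in rpb1-FSP, below WT at 1535, 1553 and 1535 CPM for RPL20A. In spt6-R the highest were RPL4A (-0.069 ± 0.14), RPL15B (-0.11 ± 0.22) and RPL2B (-0.11 ± 0.15), also not called. RPL4A was 2060.4, 2134 and 2191 CPM and RPL15B 13.3, 16.9 and 16.018 CPM in spt6-R, and both overlapped WT. RPL2B was 3875, 3761 and 4154 CPM in WT and 3597, 3653 and 3674 CPM in spt6-R, just below it.

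The single mutants of each protein could be compared directly for rpb1. In rpb1-FSP 21 of 81 genes were lower than in rpb1-TPY, where 0.997% of all genes were called lower, and the median difference was -0.35. RPL27B differed most (-1.18 ± 0.12, edgeR adjusted p = 3.67e-06). The count fell to 10 without spt6-KK library 2 or 3, to 7 and 8 without rpb1-TPY libraries 2 and 3, and to 11, 9 and 5 without rpb1-FSP libraries 1, 2 and 3. Against rpb1-TPY, 32 genes were lower in spt6-R, where 3.03% of all genes were called lower, with a median of -0.34. That count was 10 without spt6-R library 2 or 3, 14 and 16 without rpb1-TPY libraries 2 and 3, 21 and 20 without spt6-KK libraries 2 and 3, and 21 without spt6-R,KK library 2. Both comparisons were added after the data were seen.

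The double mutants were also lower than their own single mutants. In spt6-R,KK 69 genes were lower than in spt6-R (7.28% of all genes, median -0.64) and 66 were lower than in spt6-KK (13.8% of all genes, median -0.63). In rpb1-TPY,FSP 77 genes were lower than in rpb1-TPY (16.3% of all genes, median -1.01) and 70 lower than in rpb1-FSP (8.29% of all genes, median -0.68). No gene was called higher in any of the 4. RPL36A was the lowest or among the 3 lowest in each, at -1.10, -1.23, -2.00 and -1.24. RPP0 and RPL4A were called in none of them. RPP0 had -0.16 and 0.12 against the spt6 single mutants and -0.27 and -0.15 against those of rpb1.

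Whether the 2 alterations of 1 protein add up was tested on the log2 scale, by comparing the double mutant's change with the sum of its single mutants' changes. For spt6 no large-subunit gene was called as departing from the sum in the edgeR fit, where 0.249% of all genes were called lower. The median departure was -0.23, and 22 genes had an unadjusted p under 0.05. DESeq2 called 3 of the 81 genes lower. The 3 lowest were RPL41B (-0.75 ± 0.27), RPL39 (-0.71 ± 0.17) and RPL24A (-0.64 ± 0.16), and the 3 highest RPL22B (0.56 ± 0.20), RPL16B (0.31 ± 0.17) and RPL27B (0.30 ± 0.16), with edgeR adjusted p of 0.0602 for RPL39 and higher for the others. RPL39 stood at 579, 602 and 513 CPM in WT, 415, 409 and 417 CPM in spt6-R, 573, 526 and 535 CPM in spt6-KK and 233, 261 and 237 CPM in spt6-R,KK, below all libraries of both single mutants. RPL24A stood at 1074, 1090.5 and 1036 CPM in WT, 798, 777 and 763 CPM in spt6-R, 1039.5, 941 and 985 CPM in spt6-KK and 437, 489 and 461 CPM in spt6-R,KK, also below both single mutants. RPL41B was 123, 164 and 142 CPM in spt6-R, which overlapped the double mutant. RPL22B stood at 88.1, 87.1 and 68.1 CPM in WT, 52.9, 45.6 and 45.3 CPM in spt6-R, 57.3, 40.6 and 46.8 CPM in spt6-KK and 46.021, 39.3 and 40.9 CPM in spt6-R,KK, and its double mutant overlapped both single mutants. RPL16B was 2777, 2531 and 2735 CPM in spt6-R and 2457, 1982 and 2209 CPM in spt6-KK, and its double mutant overlapped both as well. With the replicate number as a block 2 genes were called, and with only the strains compared 4. Leaving out rpb1-TPY library 1 or 2, rpb1-FSP library 3 or rpb1-TPY,FSP library 1 called 2, 3, 1 and 2 genes.

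For rpb1, 36 of the 81 genes lay below the sum, where 1.87% of all genes were called lower, and none lay above it. The median departure was -0.63, against 0.03 over all genes. The lowest were RPL36A (-1.21 ± 0.19, edgeR adjusted p = 0.00292), RPL18B (-1.19 ± 0.21) and RPL37B (-1.16 ± 0.17). The sum for this protein lies near the rpb1-FSP change alone, the median change in rpb1-TPY being -0.07. RPL18B had log2 fold changes of -0.16 in rpb1-TPY and -0.37 in rpb1-FSP, so both entered its sum. It stood at 293, 326 and 353 CPM in rpb1-TPY, 287, 269.9 and 282 CPM in rpb1-FSP and 115, 110.1 and 103 CPM in rpb1-TPY,FSP. The double mutant's libraries lay below all those of both single mutants. RPL37B was 759, 762 and 736 CPM in rpb1-TPY and 645, 565 and 534 CPM in rpb1-FSP, and the double mutant again lay below both. At the high end were RPL41B (0.44 ± 0.27), RPL4A (0.064 ± 0.20) and RPL10 (0.015 ± 0.20), none called. RPL41B was 132, 113 and 95.6 CPM in rpb1-FSP. RPL4A was 2025, 1723 and 2168 CPM in rpb1-TPY and 1960.0, 1926 and 2148 CPM in rpb1-FSP, and RPL10 was 2036, 2549 and 2681 CPM and 1969.5, 1969 and 1878 CPM. For these 3 genes the double mutant overlapped both single mutants. Small-subunit genes lay below the sum in 1 and 28 of 56 cases for spt6 and rpb1.

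**Figure D3:**
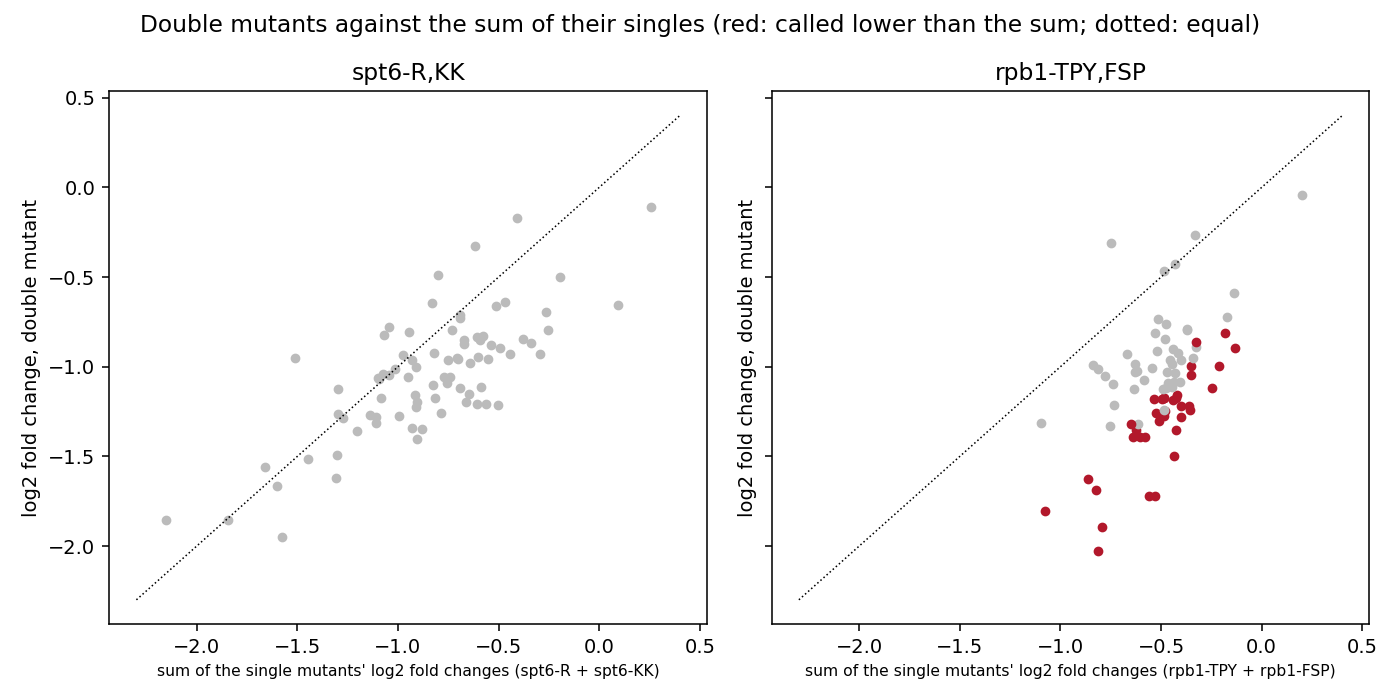
Log2 fold change of each large-subunit gene in a double mutant (vertical axis) against the sum of the log2 fold changes of its single mutants (horizontal axis), for spt6 (left) and rpb1 (right); red points were called lower than the sum and the dotted line marks equality. No point is red for spt6, and 36 are red for rpb1.

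The departure from the sum was compared between the 2 proteins in a test added after the data were seen. RPL37B and RPL27B departed more in rpb1-TPY,FSP than in spt6-R,KK, where 0.089% of all genes were called lower in that test. The differences were -1.09 ± 0.21 for RPL37B and -1.02 ± 0.20 for RPL27B, each with an edgeR adjusted p of 0.0206. The other 79 genes were not called, and the median difference was -0.38. Without spt6-R library 2 or 3, spt6-KK library 2 or 3, spt6-R,KK library 2 or rpb1-FSP library 1 no large-subunit gene was called, whereas 11, 8 and 4 were called without spt6-KK library 1, spt6-R,KK library 3 and rpb1-TPY,FSP library 2. DESeq2 called 11.

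The double mutants were also compared directly. Between spt6-R,KK and rpb1-TPY,FSP no large-subunit gene was called by edgeR or DESeq2, and 1 had an unadjusted p under 0.05. Over all genes 0% were called lower and 0.0356% higher in spt6-R,KK. The median difference was 0.06, and the values of single genes ran from -0.35 ± 0.19 (RPL41B) to 0.36 ± 0.10 (RPL8A). RPL8A stood at 416, 458 and 414 CPM in spt6-R,KK and 295, 361 and 347 CPM in rpb1-TPY,FSP, against 659, 690.0 and 666 CPM in WT. Its 3 groups did not overlap, with spt6-R,KK in the middle, but the edgeR adjusted p between the double mutants was 0.932. The largest standard error of any gene in that comparison was 0.22, for RPL15B, and a p above the threshold does not show that the strains are alike. RPL9B (0.25 ± 0.13) and RPL30 (0.24 ± 0.16) came next at the high end and RPL39 (-0.16 ± 0.12) and RPL34A (-0.12 ± 0.11) at the low end. RPL30 was 609, 475 and 428 CPM in spt6-R,KK and 315, 481 and 486 CPM in rpb1-TPY,FSP, and RPL9B 224, 182 and 195 CPM and 139.6, 182 and 182 CPM. Both overlapped between the double mutants, with the first rpb1-TPY,FSP library lowest. RPL39 was 236, 285 and 295 CPM, RPL34A 236, 270.4 and 224 CPM and RPL41B 84.9, 158 and 164 CPM in rpb1-TPY,FSP, and each overlapped its spt6-R,KK libraries, which are given elsewhere.

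Within pairs, the A and B copies often changed by unequal amounts, as did those of some other pairs in the same test. The log2 ratio of A to B counts in each library was compared with limma, in which 35 large-subunit pairs stood among 61 pairs of A and B copies. The ratio changed in 13 of 35 pairs in spt6-R (31.1% of all 61 pairs), 18 in spt6-KK (45.9%) and 17 in rpb1-FSP (42.6%). It changed in 25 in spt6-R,KK (63.9%) and 24 in rpb1-TPY,FSP (65.6%). It changed in none in rpb1-TPY (0%), where 1 pair had an unadjusted p under 0.05. The 61 pairs include these 35, so the share among all pairs is not an outside background. Whether large-subunit pairs differ from the other pairs was not tested, and the counts cannot show anything particular about large-subunit genes. The spt6-R count was 7 and 8 without WT libraries 1 and 2, 8 without spt6-R library 2 and 20 without rpb1-TPY,FSP library 1. In spt6-R,KK the A copy fell further in 15 of the called pairs and the B copy in 10. In rpb1-TPY,FSP the numbers were 16 and 8. Both copies were called lower in 33 and 32 of the 35 pairs.

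**Figure D4:**
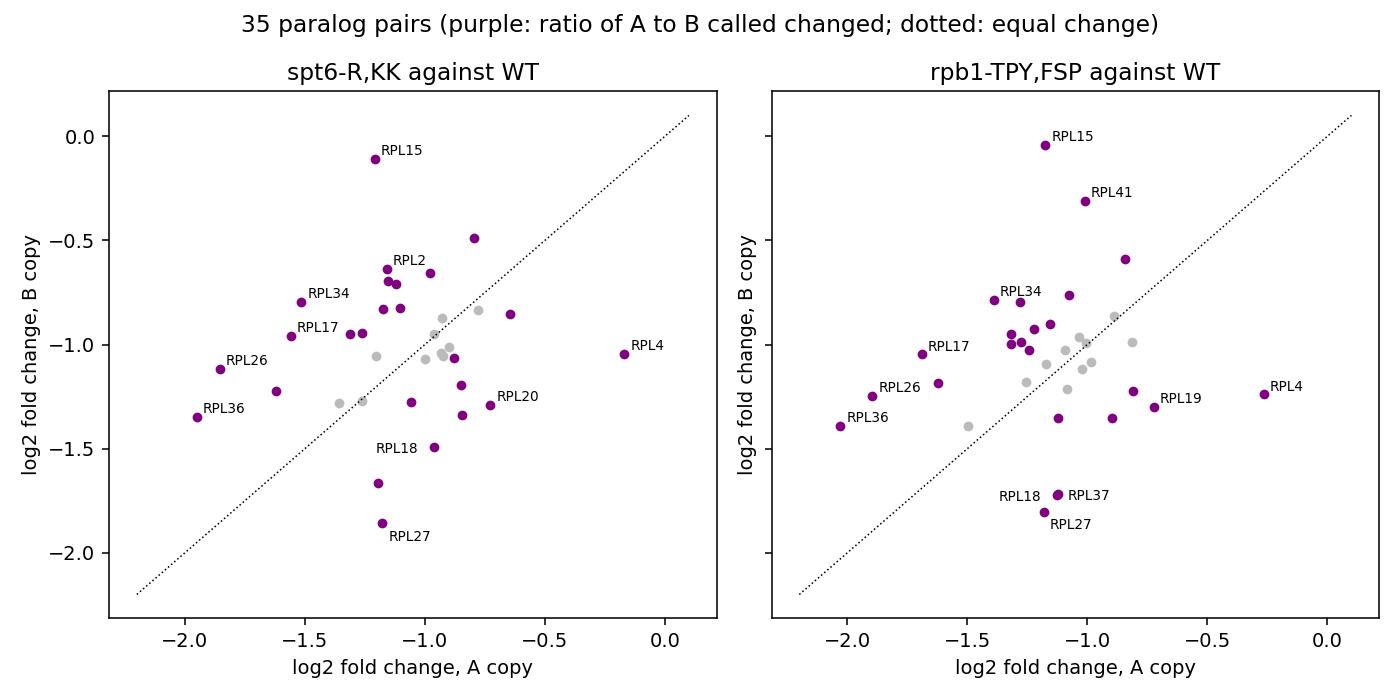
Log2 fold change against WT of the B copy (vertical axis) against that of the A copy (horizontal axis) for the 35 paralog pairs in the 2 double mutants; purple points have an A to B ratio called changed and the dotted line marks equal change. RPL15 and RPL4 lie farthest from the line, on opposite sides, in both panels.

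RPL15 had the largest change of ratio. RPL15A (YLR029C, chromosome XII, 201976 to 202590, minus strand) carries nearly all the pair's RNA and stood at 2022, 2019 and 1999 CPM in WT, 874, 854 and 888 CPM in spt6-R,KK and 833, 910.2 and 933 CPM in rpb1-TPY,FSP. RPL15A fell by more than the median gene (-1.21 ± 0.11 and -1.17 ± 0.11), while the sparse RPL15B (YMR121C, chromosome XIII, 509734 to 510348, minus strand), with the values above, was not called. The log2 ratio of A to B changed by -1.09 ± 0.18 (limma adjusted p = 1.55e-05) in spt6-R,KK and -1.09 ± 0.18 in rpb1-TPY,FSP. In shares of the pair's counts the shift was small, with A taking 99.2%, 99.1% and 99.2% in the WT libraries, 98.5%, 98.2% and 98.1% in spt6-R,KK and 97.5%, 98.5% and 98.6% in rpb1-TPY,FSP. With the summed counts of both copies RPL15 fell by 1.20 and 1.18 on the log2 scale.

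RPL4 moved the other way. Its A copy took 69.2%, 67.9% and 69.6% of the pair's counts in WT, 77.6%, 81.2% and 82.6% in spt6-R,KK and 78.2%, 82.5% and 82.2% in rpb1-TPY,FSP. The double mutants' shares all lay above the WT shares. RPL4B stood at 968, 1055 and 1004 CPM in WT, 614, 509.6 and 345 CPM in spt6-R,KK and 382, 469 and 431 CPM in rpb1-TPY,FSP and fell in both (log2 fold changes -1.04 and -1.24), while RPL4A was not called. The ratio changed by 0.90 ± 0.099 and 0.95 ± 0.099. With sense counts over the middle 70% of each gene the changes were 0.44 and 0.48, still called, and since the copies are nearly identical the size of this change is uncertain. In spt6-KK the change of 0.42 was called on full-gene counts (limma adjusted p = 0.00186) but was 0.086 on mid-gene counts (adjusted p = 0.326). Unscaled mid-gene counts in WT put RPL4B above RPL4A, at 19982, 19884 and 14575 against 14904, 14502 and 10463. For RPL4B they were 15932, 12152 and 11143 in spt6-R,KK and 12888, 13220 and 14542 in rpb1-TPY,FSP. Which copy is the larger, and how far RPL4B fell, are therefore uncertain too.

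RPL27 and RPL26, whose copies can be told apart along most of their length, also split. RPL27A, at 833, 827 and 779 CPM in WT, 323, 394 and 363 CPM in spt6-R,KK and 334, 387 and 354 CPM in rpb1-TPY,FSP, fell less than RPL27B. The A share of RPL27 was 51.4%, 49.98% and 49.6% in WT, 64.7%, 65.9% and 67.3% in spt6-KK, 60.98%, 62.4% and 61.8% in rpb1-FSP, 61.7%, 60.4% and 60.8% in rpb1-TPY,FSP and 60.5%, 61.1% and 64.01% in spt6-R,KK. It was therefore farthest from WT in a single mutant, spt6-KK, where the ratio changed by 0.94 ± 0.075 (limma adjusted p = 6.77e-10), against 0.41 ± 0.075 in spt6-R, 0.67 ± 0.075 in rpb1-FSP, 0.62 ± 0.075 in rpb1-TPY,FSP and 0.68 ± 0.075 in spt6-R,KK. Whether these changes differ from each other was not tested. RPL26B stood at 1377, 1327 and 1342 CPM in WT, 674, 592 and 599 CPM in spt6-R,KK and 494, 602 and 607 CPM in rpb1-TPY,FSP, and RPL26A fell further. The A share of RPL26 was 37.1%, 39.1% and 37.5% in WT, 25.5%, 29.6% and 25.2% in spt6-R,KK and 27.7%, 29.5% and 26.8% in rpb1-TPY,FSP, with no overlap with WT.

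RPL36, the pair with the same 10 letters in both sites, split as well: RPL36B stood at 723, 769 and 759 CPM in WT, 278, 318 and 287 CPM in spt6-R,KK and 252, 314 and 293 CPM in rpb1-TPY,FSP. The log2 fold changes were -1.95 for A and -1.35 for B in spt6-R,KK, and -2.03 and -1.39 in rpb1-TPY,FSP. The ratio changed by -0.60 ± 0.099 and -0.64 ± 0.099. The tunnel pair RPL17 changed by -0.60 and -0.65, and RPL34 by -0.72 and -0.59, the A copy falling further in both. RPL17A was 1678, 1759 and 1656 CPM in WT, 595, 628 and 505 CPM in spt6-R,KK and 445, 567 and 567 CPM in rpb1-TPY,FSP, and RPL17B was 864, 888 and 826 CPM in WT, 436, 471 and 419 CPM in spt6-R,KK and 386, 433 and 427 CPM in rpb1-TPY,FSP. All of those double mutant libraries lay below WT for both copies. RPL34A was 195, 252 and 223 CPM and RPL34B 363, 400.5 and 424 CPM in spt6-R,KK, against 685, 670.1 and 708 CPM for RPL34B in WT, and RPL34B was 308, 439 and 449 CPM in rpb1-TPY,FSP. RPL20 changed by 0.56 and 0.45, its B copy falling further, and RPL41 by -0.33 and -0.70. RPL20A was 873, 1047 and 874 CPM in spt6-R,KK and 679, 951 and 855 CPM in rpb1-TPY,FSP, and RPL20B was 1319.8, 1337 and 1338 CPM in WT, 523, 602 and 511 CPM in spt6-R,KK and 481, 580.3 and 504 CPM in rpb1-TPY,FSP. RPL41A was 853, 812 and 749.9 CPM in WT, 348, 481 and 397 CPM in spt6-R,KK and 256, 439 and 505 CPM in rpb1-TPY,FSP. For these 3 genes and for RPL34A and RPL34B every double mutant library lay below WT. RPL12, RPL23, RPL33 and RPL35 were among the pairs whose ratio was called in neither double mutant, with changes between -0.10 (RPL12) and 0.055 (RPL33). RPL35A and RPL35B are 99.2% identical in coding sequence, so how reads were divided between them is uncertain. The ratio of RPL35 therefore does not show that its copies changed alike.

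In the single mutants the 5 pairs with the largest called changes of ratio are given as A shares. In WT the A copy took 47.8%, 49.3% and 47.3% of the counts of RPL34, 53.8%, 53.7% and 53.4% of RPL20, 66%, 66.5% and 66.7% of RPL17, 82.2%, 83.8% and 82.3% of RPL41 and 77.6%, 76% and 77.9% of RPL9. In spt6-R the A shares were 39.5%, 39.9% and 39.5% for RPL34, 61.7%, 60.4% and 61.4% for RPL20, 59.5%, 58.96% and 59.5% for RPL17, 33.05%, 29.5% and 31.02% for RPL26 and 56.1%, 57.8% and 58.1% for RPL27. RPL20 and RPL27 lay above their WT shares and the other 3 below, with no overlap. In spt6-KK the shares were 27.9%, 26.4% and 26.4% for RPL26, 36.7%, 36.7% and 36.1% for RPL34, 57.7%, 54.6% and 53.05% for RPL17 and 77.9%, 73.2% and 74.2% for RPL41, beside the RPL27 values above. All 4 lay below their WT shares, and RPL27 above. In rpb1-FSP they were 98.5%, 98.7% and 98.8% for RPL15, 67.2%, 72.6% and 70.6% for RPL9, 59.96%, 59.5% and 62.99% for RPL20 and 62.02%, 57.7% and 59.1% for RPL17, again beside RPL27. RPL20 and RPL27 lay above WT and the other 3 below, without overlap.

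**Figure D5:**
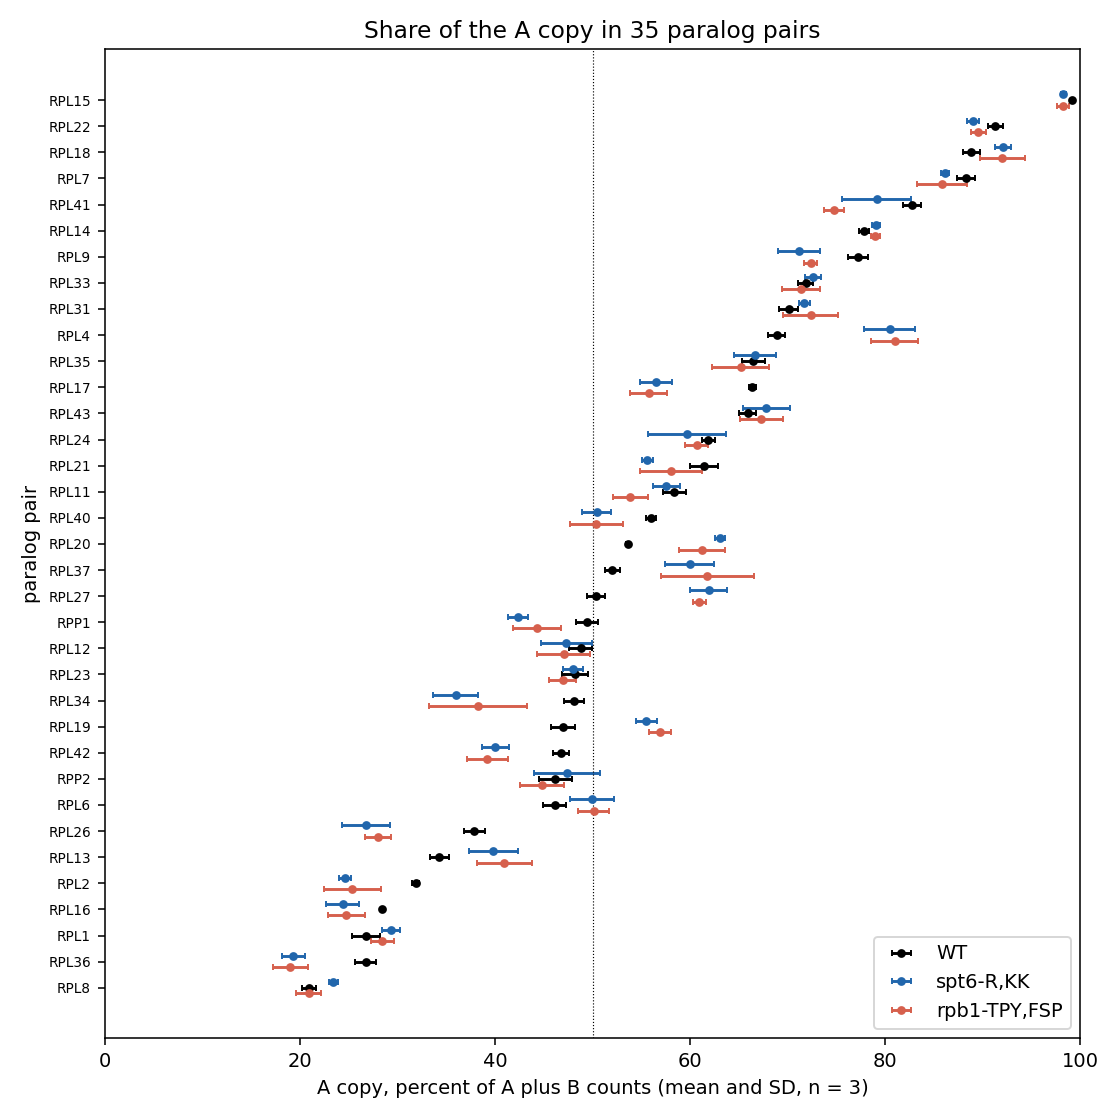
Share of the A copy in the counts of each of the 35 pairs, in percent (mean and SD over 3 libraries), in WT, spt6-R,KK and rpb1-TPY,FSP, ordered by the WT share; the dotted line marks 50%. RPL4, RPL27 and RPL19 lie to the right of WT in both double mutants, and RPL17, RPL34 and RPL26 to the left.

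Changes were also taken per protein, from the summed counts of its copies. With paralogs added before the fit, 45 of 46 proteins had lower RNA in spt6-R,KK (17.1% of all rows called lower) and 46 in rpb1-TPY,FSP (16.8%), the first exception being the single-copy RPP0. In the single mutants 23 fell in spt6-R (3.62%), 25 in spt6-KK (6.46%), 11 in rpb1-FSP (0.774%) and 0 in rpb1-TPY (0%). The standard deviation of log2 fold changes in spt6-R,KK was 0.266 over the 46 sums and 0.336 over the 81 genes, and in rpb1-TPY,FSP 0.255 and 0.339. The change of a sum lies between those of its copies, so a narrower spread follows from the summing itself.

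Genes that control or serve these proteins were counted in the same fit. Of 26 genes for transcription factors and signalling proteins of ribosomal protein genes, 3 fell and 4 rose in spt6-R,KK and 2 fell and 3 rose in rpb1-TPY,FSP. Over all genes tested, 17.5% were called lower and 19.3% higher in spt6-R,KK, and 16.4% and 18.8% in rpb1-TPY,FSP, so these counts are near or below the share among all genes and say nothing particular about the regulators. The regulators named next were picked from those called. Other members of the list, among them RAP1, FHL1, IFH1, SFP1, TOR1 and TOR2, are not described. The named genes therefore show no trend of the list. HMO1, an HMG-box protein found at many of these promoters, fell in both (-1.19 ± 0.13 and -1.21 ± 0.13), and so did REB1, a general regulatory factor (-0.70 ± 0.13 and -0.50 ± 0.13). CRF1, described as a corepressor of these genes, rose from a low level of 1.88 CPM in WT (1.33 ± 0.36 and 1.38 ± 0.36), as did the kinase genes RIM15 (0.73 ± 0.13 and 0.74 ± 0.13) and YAK1 (0.82 ± 0.27 and 0.72 ± 0.27), which act when growth signals fade. Of 23 tested genes for chaperones and modifying enzymes of large-subunit proteins, 12 fell in spt6-R,KK and 8 in rpb1-TPY,FSP, and none rose, beside the same shares over all genes. They included NMD3, the export adaptor of the subunit (-0.76 ± 0.14 and -0.65 ± 0.14), SYO1, which carries Rpl5 and Rpl11 (-0.60 ± 0.18 and -0.62 ± 0.18), and RRB1, the chaperone of Rpl3 (-0.58 ± 0.14 and -0.53 ± 0.14). The placeholder proteins' genes RLP24 (-0.80 ± 0.17 and -0.48 ± 0.17) and MRT4 (-0.72 ± 0.18 and -0.49 ± 0.18) fell too. Medians over these lists were -0.13 and -0.09 for the regulators and -0.46 and -0.34 for the chaperones and enzymes.

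In the authors' deposited table of full-gene comparisons, 47 large-subunit genes were called lower in spt6-R at an adjusted p under 0.05 (6.5% of all genes with an adjusted p), 53 in spt6-KK (8.28%) and 78 in spt6-R,KK (17.1%). The counts were 0 in rpb1-TPY (0%), 48 in rpb1-FSP (4.02%) and 78 in rpb1-TPY,FSP (17.3%) in the authors' deposited table. None was called higher there.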

How the data were processed

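RNA from 21 libraries, 3 for each of 7 strains, was analysed from the authors' deposited tables. Counts per gene were deposited as raw whole numbers in 2 forms, per the file headers: over the full gene and, in sense, over the middle 70% of it. Per the submitters' processing notes the tools were cutadapt 1.16, STAR 2.6.1b, featureCounts 1.6.3 and DESeq2 1.22.2, with the R64 (sacCer3) genome. The authors' deposited tables of comparisons also hold log2 fold changes and adjusted p-values. The treatment of multi-mapped reads and of overlapping genes is not given in the sources used here, so near-identical paralogs are uncertain, and small nucleolar RNAs lie in introns of RPL7A and RPL7B. In WT library 1 mid-gene counts exceeded full-gene counts for some such paralogs, at 15037 against 4771 for RPL1A and 19982 against 6437 for RPL4B. The 2 forms were therefore not counted alike for these genes, and mid-gene counts are not simply a part of the full-gene counts.

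Full-gene counts of all 21 libraries were fitted together with edgeR 4.0.16 (quasi-likelihood, filterByExpr, TMM) in R 4.3.3, with strain as the term. Of 5823 genes 5618 were tested and 205 left out. Adjusted p-values follow Benjamini and Hochberg over all genes tested, with 0.05 as the threshold. The common biological coefficient of variation was 0.154. The log2 ratio of A to B counts (pseudocount 1, mean of at least 20 counts) was fitted with limma 3.58.1 over 61 pairs. DESeq2 1.42.0 was an alternative, as were other scalings, filters, counts, sample sets and the leaving out of each library. Both steps were tested on simulated data for spt6-R,KK against WT: edgeR recovered 95% of changes of log2 size 1 and 23% of size 0.5 over 5589 genes, with 7 false calls. The limma ratios recovered 100% of changes of either size over 61 pairs, with 1 false call. Most simulated gene changes of size 0.5 were thus missed, so a gene not called in a single mutant is not shown to be unchanged. No pair of libraries held identical values.

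The members and gene lists were chosen with earlier results of these data known. Values in every library were given for the 5 lowest and 5 highest genes in each double mutant, the 3 lowest and 3 highest in each single mutant, in the comparisons with the sum and between double mutants, for the paralog pairs with the largest changes of ratio, and for the stalk and 5S RNA partners. Genes of other kinds were limited to 5 of each list.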

Additional observations from a re-analysis of the deposited data

Results flagged for a closer look

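RPL27B and RPL37B were singled out because the departure of the double mutant from the sum of its single mutants differed between the 2 altered proteins in a test of that difference, which was added after the data were seen. For RPL27B the departure in rpb1-TPY,FSP minus that in spt6-R,KK was -1.023 ± 0.199 (SE, edgeR adjusted p = 0.0206), the departures being -0.73 ± 0.16 and 0.30 ± 0.16. For RPL37B it was -1.094 ± 0.209 (adjusted p = 0.0206), from departures of -1.16 ± 0.17 and -0.066 ± 0.17. Neither call was made when only the strains of the comparison were fitted.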

How the results depend on the processing

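Where a value below moved, the cause was not tested. Counts below stand without the share over all genes in the same setting, so they show only how the members' calls moved. Fits with only the strains compared called 73 genes lower in spt6-R and 68 in rpb1-FSP, 4 for spt6 against the sum, 0 in the difference of departures, 11 for rpb1-FSP and 19 for spt6-R against rpb1-TPY. Summing A and B copies left 46 proteins to call, fewer than the genes by construction: 23 in spt6-R, 25 in spt6-KK, 45 in spt6-R,KK, 11 in rpb1-FSP and 46 in rpb1-TPY,FSP. The sums gave 41 and 37 for spt6-R,KK against spt6-R and spt6-KK, 44 and 41 for rpb1-TPY,FSP against rpb1-TPY and rpb1-FSP, 19 for rpb1 against the sum, 0 in the difference of departures, 4 for rpb1-FSP and 12 for spt6-R against rpb1-TPY. When library 1 of each double mutant was left out, the counts were 51 in rpb1-FSP, 1 for spt6 against the sum, 35 for rpb1-FSP against rpb1-TPY and 21 paralog ratios in spt6-R. DESeq2 gave 3 for spt6 against the sum and 11 in the difference of departures, and mid-gene counts gave 9 for rpb1-FSP and 21 for spt6-R against rpb1-TPY.

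Leaving out 1 library at a time gave 17 to 56 genes in spt6-R, 23 to 56 in spt6-KK, 78 to 79 in spt6-R,KK, 0 in rpb1-TPY, 10 to 45 in rpb1-FSP and 76 to 79 in rpb1-TPY,FSP. Against the single mutants it gave 59 to 72 and 57 to 69 for spt6-R,KK and 76 to 77 and 64 to 72 for rpb1-TPY,FSP. It gave 0 to 3 and 25 to 42 against the sums, 0 between double mutants, 0 to 11 in the difference of departures, 5 to 29 for rpb1-FSP and 10 to 35 for spt6-R against rpb1-TPY. Paralog ratios ran from 7 to 20, 16 to 20, 21 to 25, 0, 12 to 19 and 22 to 24 in spt6-R, spt6-KK, spt6-R,KK, rpb1-TPY, rpb1-FSP and rpb1-TPY,FSP. RPL15B in rpb1-TPY,FSP was -0.30 without its library 1 and turned to 0.024 and 0.056 without libraries 2 and 3. Over 56 single values of genes in comparisons, the leaving out of libraries gave 1176 values, of which 1125 kept direction and call, 47 lost the call, 2 gained it and 2 reversed. The 8 other settings gave 448, of which 436 kept both, 11 lost the call and 1 gained it.

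Same-numbered libraries of different strains correlated by -0.416 to 0.485 in their deviations (median 0.125, 63 pairs), and those with different numbers by -0.452 to 0.406 (median -0.0475, 126 pairs). Not every same-numbered pair exceeded 0.1 and no label says that a number marks a shared batch, so the numbers were not taken to pair libraries. With the replicate block, spt6 against the sum had 2 genes called, and the paralog ratios 17, 19, 24, 0, 17 and 25 pairs in the order above. Of 21 libraries 18 correlated best with their own number, a hint from the data and not the design.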

Other observations

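Features that did not choose the members are given as descriptions. The 53 genes with an intron had a median log2 fold change of -1.06 in spt6-R,KK and -1.12 in rpb1-TPY,FSP, and the 28 without one -0.97 and -1.08. The 50 genes with the looser pattern like the Rap1 site in the 600 bases before the start codon had medians of -1.08 and -1.14, and those without it -0.96 and -1.05. With the stricter pattern first planned the order was the other way. The 5 genes that matched it had medians of -0.95 and -1.01, and the 76 others -1.04 and -1.09. Whether genes with a match differ from the others was not tested. The 71 matches to the looser pattern lay a median of 332 bases before the start codon.

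Across the 81 genes, Spearman's rho between coding length and log2 fold change was 0.31 in spt6-R, 0.06 in spt6-KK, 0.36 in spt6-R,KK, 0.04 in rpb1-TPY, 0.41 in rpb1-FSP and 0.17 in rpb1-TPY,FSP. These are descriptions across genes that share libraries and WT, and genes are not independent replicates.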
